A study of Mus musculus with 6 samples.

Results

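The 33 genes described here carry sugar into the cell, break it down to lactate, pass pyruvate into the mitochondrion, or belong to the cell's oxygen-sensing system. They were measured by RNA sequencing in 3 libraries of mouse T cells given DSF and 3 libraries given DMSO, each for 2 h. Members were chosen by name from a list drawn up with earlier results of these data known. Rows with a mean of at least 10 counts over the 6 libraries were kept. The shares of members called below are therefore not those of a list chosen blind to the data. All 33 listed genes were found, of 55536 genes in the table and 14260 with a mean of at least 10 counts, and all 33 entered the test. They fall into 5 genes of membrane transport, 18 of glycolysis, 5 of pyruvate entry and 5 of the HIF system and glycogen. A further row with the symbol Aldoa (ENSMUSG00000114515) had a mean of 5.5 counts and was left out.

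The DSF group was primary OT-I T cells exposed to DSF, which the series title gives as disulfiram, an inhibitor of aldehyde dehydrogenases used against alcohol dependence. The DMSO group was the same kind of cell exposed to DMSO, the solvent in which such compounds are commonly dissolved. Both groups were wildtype by genotype label, came from lymph nodes and were kept in RPMI medium with serum, 2-mercaptoethanol and non-essential amino acids. The OT-I receptor is a transgene that makes T cells, mostly CD8+ ones, recognise a peptide of ovalbumin on MHC class I. The labels used here give no DSF concentration, no state of activation and neither age nor number of mice. Each label calls its library a biological replicate but names no animal or culture, so p-values measure the spread between these libraries.

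Glucose enters T cells through facilitative transporters of the GLUT family, is phosphorylated by hexokinase and is split by glycolysis into pyruvate, which lactate dehydrogenase turns into lactate. Lactate leaves or enters through proton-coupled monocarboxylate transporters, which need an immunoglobulin-like partner protein to reach the surface. The transcription factor HIF-1, kept low in oxygen by prolyl hydroxylases that mark its alpha subunit for destruction, is known to drive many of these genes, and activated T cells are known for high glucose uptake and lactate release.

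HIF-1 binds DNA at a short core, ACGTG or GCGTG. These letters were sought on both strands in the promoter windows of RefSeq (GRCm38.p6), in the 250 bases before a gene's start. The windows run on to 50 bases after the start, and that part was not searched. Of the members, 31 had a window and Slc2a3 and Bsg had none. The core stood in at least 1 window of 28 of the 31 members (90.3%), against 60.3% of the 10132 tested genes with a window and 41.5% of all 27025 genes. Gpi1, Gys1 and Tpi1 were without the core. A gene counted if any of its windows matched. The 31 members had 45 windows and all 27025 genes had 32851, so members had more windows per gene and more chances of a match. The core was present in 7 of 7 members called higher and in 2 of 2 called lower. By its forms, ACGTG stood in 6 of the 7 and in 2 of the 2, and GCGTG in 5 of the 7 and in 0 of the 2, numbers too small to compare. The E-box CACGTG, which contains the core ACGTG, stood in 6 of the 31 members (19.4%), against 9.77% of tested genes. A match of so few letters describes the window and is no evidence of binding. The 250 bases before the start are shown for 3 genes on which the results turn: Slc16a1, a transporter that rose, Egln3, a HIF hydroxylase that rose, and Hk2, an enzyme that fell. Each is printed 5′ to 3′ on the gene's own strand, with core matches in capitals, and a match on the opposite strand reads CACGT or CACGC.
Slc16a1, chr3:104638414-104638663, plus strand: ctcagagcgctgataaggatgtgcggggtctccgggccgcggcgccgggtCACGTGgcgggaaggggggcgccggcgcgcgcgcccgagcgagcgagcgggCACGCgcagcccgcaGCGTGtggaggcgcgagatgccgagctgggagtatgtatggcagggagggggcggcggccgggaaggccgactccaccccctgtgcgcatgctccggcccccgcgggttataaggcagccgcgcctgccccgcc
Egln3, chr12:54203875-54204124, minus strand: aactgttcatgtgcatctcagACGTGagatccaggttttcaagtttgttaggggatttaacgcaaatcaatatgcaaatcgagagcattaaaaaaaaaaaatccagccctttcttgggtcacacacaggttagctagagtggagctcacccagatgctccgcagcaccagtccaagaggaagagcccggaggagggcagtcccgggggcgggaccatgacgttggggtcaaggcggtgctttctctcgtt
Hk2, chr6:82774455-82774704, minus strand: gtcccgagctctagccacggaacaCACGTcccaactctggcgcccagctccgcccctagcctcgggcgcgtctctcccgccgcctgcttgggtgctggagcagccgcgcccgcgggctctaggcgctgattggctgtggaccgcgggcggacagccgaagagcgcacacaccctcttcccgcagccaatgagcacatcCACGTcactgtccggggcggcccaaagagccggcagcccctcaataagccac
The Slc16a1 window held 4 matches, which begin 200, 199, 149 and 134 bases before the start, the first pair overlapping in a single CACGTG. The Egln3 window held 1 match, 229 bases before the start. The Hk2 window held 2, at 226 and 52 bases.

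Library totals were 18082264 to 20951998 estimated counts in DSF and 18528236 to 21893720 in DMSO, and the 33 genes took 2.191 to 2.245% of them in DSF and 2.117 to 2.16% in DMSO. The direction of every comparison rests on reading the table's group codes DF and DO as DSF and DMSO, which the labels do not spell out. Cd8a stood at 345 to 354 CPM (counts scaled to library size by TMM) in DSF and at 408 to 415 CPM in DMSO, while Cd4 stood at 1.15 to 1.88 CPM in DSF and 1.19 to 1.24 CPM in DMSO, so the libraries carried the CD8 marker and almost no Cd4. The summed level of the 6 T cell markers was 1469 to 1484 CPM in DSF and 1575 to 1606 CPM in DMSO, lower in every DSF library, and its part in the results below was not tested. The list did not move as one: Cd2 had 253, 247 and 243 CPM in DSF and 214, 215 and 209 CPM in DMSO, higher in every DSF library, and Cd3e overlapped at 215 to 219 CPM in DSF and 216 to 237 CPM in DMSO. Of the markers of other cells, the B cell sum was 31.7 to 33.8 CPM in DSF and 31.3 to 34.7 CPM in DMSO. The myeloid and dendritic cell sum was 15.1 to 16.9 CPM in DSF and 14.9 to 18.7 CPM in DMSO, with Siglech at 0 in all 6 libraries. The natural killer cell sum was 2.67 to 4.09 CPM in DSF and 2.88 to 3.15 CPM in DMSO, and the erythroid, stromal and endothelial sum, nearly all Pecam1, was 30.9 to 35.9 CPM in DSF and 32.8 to 36.4 CPM in DMSO. The CD4 T cell list, nearly all Zbtb7b, summed to 30.7 to 34.4 CPM in DSF and 24.7 to 28.6 CPM in DMSO, higher in every DSF library.

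DSF cells had more mRNA for the transporters that move glucose and lactate, while mRNA for most enzymes between them was not called as changed. Slc2a3 stood 2.36-fold and Slc16a1 1.82-fold higher in DSF, and Slc2a1, Slc16a3 and Egln3 rose by less. Hk2 and Hif1a fell. In bulk RNA, fewer cells of a type and less RNA per cell cannot be told apart. In edgeR's quasi-likelihood test with Benjamini-Hochberg adjustment over all genes, 8 of the 33 members were called higher and 2 lower at an adjusted p under 0.05, and 23 were not called. The 10 called make 30.3% of the members, beside 22.9% of the 14318 genes tested (3276), of which 11.6% were called higher and 11.3% lower. Among genes averaging 100 CPM or more, 35.6% were called, and of the 23 members at that level 6 were. Calls with a change of at least 1.5-fold made up 4.34% of all genes and were made for 2 members, Slc2a3 and Slc16a1. The median log2 fold change was 0.05 over the members and -0.0027 over all genes tested.

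**Figure D1:**
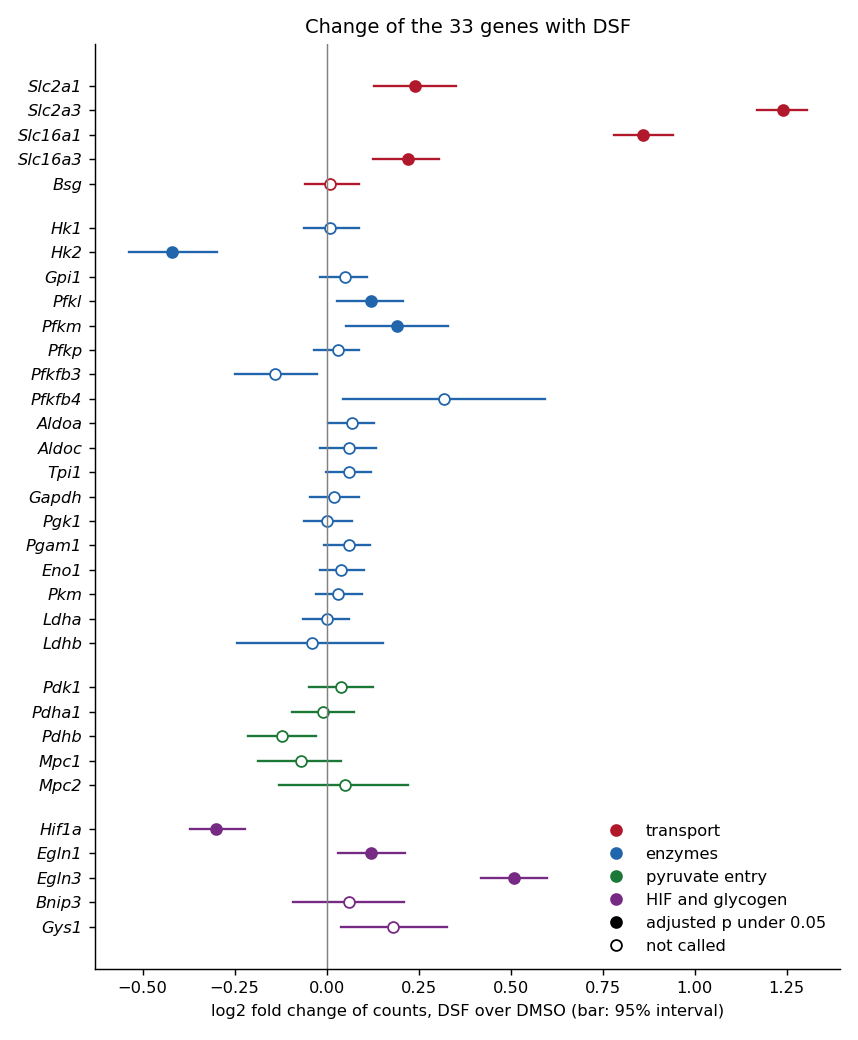
Log2 fold change of counts, DSF over DMSO (x axis), for each of the 33 genes (rows, grouped and coloured by class), with 95% intervals from the quasi-likelihood fit as bars; filled points have an adjusted p under 0.05. Slc2a3 at 1.24 and Slc16a1 at 0.86 lie furthest right, Hk2 at -0.42 furthest left, and most enzymes lie close to 0.

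By class, the calls were spread unevenly, though 3 of the 4 classes hold only 5 genes. Of all genes tested, 22.9% were called, 11.6% higher and 11.3% lower. Of the 5 transport genes 4 were called higher and none lower (80.0% called, median log2 fold change 0.24). Of the 18 glycolytic genes 2 were called higher, 1 lower and 15 not (16.7% called, under the share of all genes, median 0.04). The 2 higher calls, Pfkl and Pfkm, were both lost, leaving 0, without DSF replicate 1, DSF replicate 3, DMSO replicate 2 or DMSO replicate 3. None of the 5 pyruvate entry genes was called (median -0.01), and of the 5 HIF and glycogen genes 2 were called higher and 1 lower (median 0.12). The 3 DSF libraries all lay above the 3 DMSO libraries for 15 members and below them for 4, beside 35.4% of all genes tested with no overlap, 17.6% with DSF above and 17.9% with DSF below.

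Slc2a3 (ENSMUSG00000003153, chr6:122727809-122801640 on the minus strand of GRCm38, GENCODE M21) encodes GLUT3, a glucose transporter of high affinity. It had 894, 848 and 908 CPM in the DSF libraries, against 376, 370 and 378 CPM in the DMSO libraries. Every DSF library stood far above every DMSO library. The fold change was 2.36 (95% interval 2.25 to 2.47), a log2 fold change of 1.24 ± 0.03 (SE) with an adjusted p of 2.09e-23 by edgeR. By p it ranked 9 and by log2 fold change 161 of the 14318 genes tested.

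Slc2a1 (ENSMUSG00000028645, chr4:119108711-119137983, plus strand) encodes GLUT1, the widely expressed basal glucose transporter. It had 43.6, 46.1 and 45.7 CPM in DSF libraries and 36.6, 39.9 and 38.0 CPM in DMSO libraries. The groups did not overlap, and the rise was 1.18-fold (95% interval 1.09 to 1.28, edgeR adjusted p = 0.00118). Per length, in TPM (the deposited level scaled for gene length and depth), Slc2a3 stood at 296 TPM in DSF and 125 TPM in DMSO, and Slc2a1 at 20.8 TPM in DSF and 17.2 TPM in DMSO. Slc2a3 thus made up 88.3 ± 0.291% of the summed TPM of the 5 measured glucose and related hexose transporters in DSF and 78.1 ± 0.234% in DMSO (SD, n = 3 each), while the sum itself was 335 ± 11.2 TPM in DSF and 159 ± 5.15 TPM in DMSO. The ratio of Slc2a3 to Slc2a1 counts was 19.6 ± 1.08 in DSF and 9.83 ± 0.512 in DMSO. None of the other 3 hexose transporters tested was called. Slc2a6 was at 1.22-fold (95% interval 0.944 to 1.58), with every DSF library above every DMSO library, Slc2a8 at 1.0-fold (0.833 to 1.21) and Slc2a9 at 0.989-fold (0.894 to 1.09). These 3 lie outside the naming rule and were named after their values were seen.

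**Figure D2:**
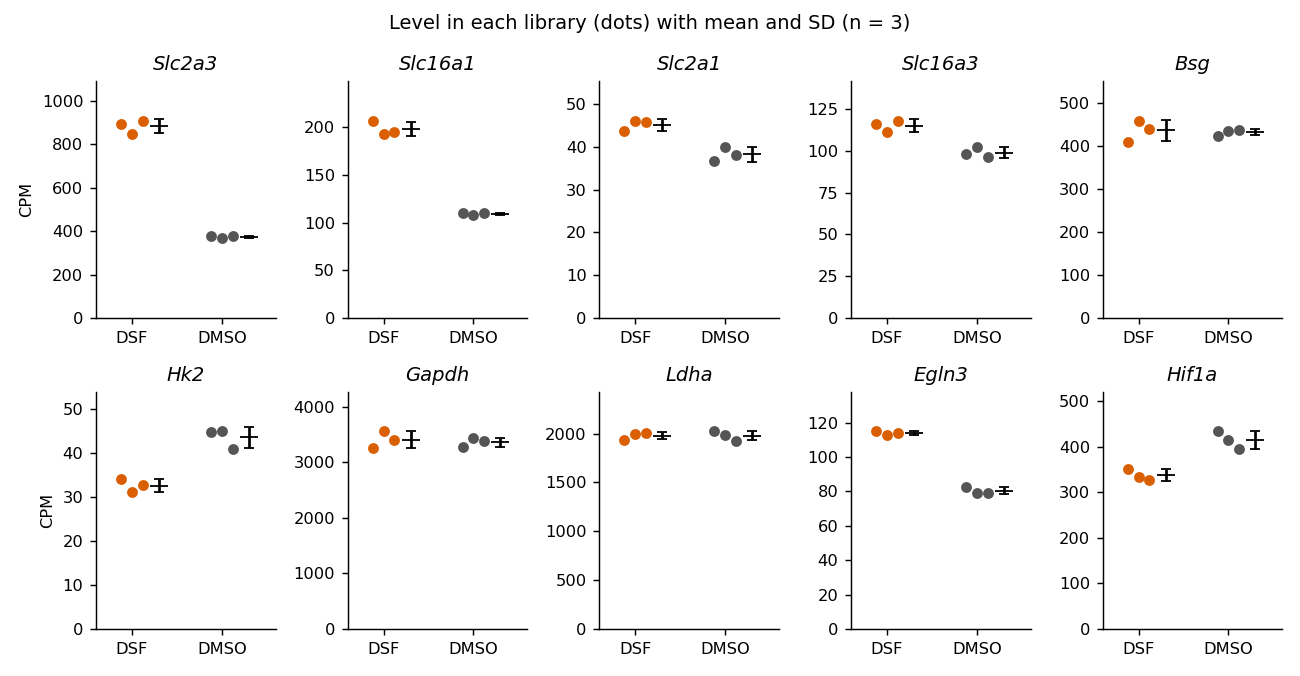
Level in CPM (y axes from 0) in each DSF library (orange, left) and DMSO library (grey, right) for 10 genes, with the mean and SD of 3 libraries as bars. Slc2a3, Slc16a1, Slc2a1, Slc16a3 and Egln3 lie higher in every DSF library, Hk2 and Hif1a lower, and Bsg, Gapdh and Ldha overlap between groups.

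Slc16a1 (ENSMUSG00000032902, chr3:104638668-104658462, plus strand) encodes MCT1, which carries lactate and pyruvate in either direction with a proton. It had 207, 193 and 195 CPM in DSF and 110, 108 and 110 CPM in DMSO. All DSF libraries lay far above the narrow DMSO range. The rise was 1.82-fold (95% interval 1.72 to 1.92, log2 fold change 0.86 ± 0.04 SE, edgeR adjusted p = 2.34e-17). Slc16a3 (ENSMUSG00000025161, chr11:120948480-120960868, plus strand) encodes MCT4, the lactate exporter of glycolytic cells. It had 116, 111 and 118 CPM in DSF and 98.0, 102 and 96.3 CPM in DMSO. The groups did not overlap, and the rise was 1.16-fold (95% interval 1.09 to 1.24, edgeR adjusted p = 0.000393). The ratio of Slc16a1 to Slc16a3 counts was 1.73 ± 0.0674 in DSF and 1.1 ± 0.0471 in DMSO (SD, n = 3 each).

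Bsg encodes basigin, the partner protein that brings MCT1 and MCT4 to the membrane. It had 411, 460 and 440 CPM in DSF and 425, 436 and 438 CPM in DMSO, so the groups overlapped. Its fold change was 1.01 (95% interval 0.96 to 1.06, edgeR adjusted p = 0.833), an interval below the folds of all 4 transporters. Embigin, encoded by Emb and known as another partner of monocarboxylate transporters, had 392, 395 and 401 CPM in DSF and 315, 298 and 292 CPM in DMSO. Its rise was 1.31-fold (95% interval 1.25 to 1.38, edgeR adjusted p = 8.54e-11). Emb made up 26.8 ± 1.25% of the summed TPM of both partners in DSF and 21.6 ± 0.97% in DMSO.

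While Slc16a1 rose, Slc16a6 and Slc16a10 fell. Of the 7 other genes of this list that were tested, Emb was the only one called higher and 4 were called lower (median log2 fold change -0.37). The 5 called make 71.4% of the 7, beside 22.9% of all genes tested (11.6% called higher and 11.3% lower). Slc16a6, known in zebrafish for exporting ketone bodies from the liver, had 95.9, 106 and 99.0 CPM in DSF and 138, 130 and 139 CPM in DMSO. Every DSF library stood lower, with a fold change of 0.739 (95% interval 0.693 to 0.787, edgeR adjusted p = 5.22e-09). Slc16a10, an aromatic amino acid transporter, was at 0.688-fold (95% interval 0.618 to 0.765, edgeR adjusted p = 1.53e-06). Slc16a13 was at 0.775-fold (edgeR adjusted p = 0.023), a call that ended in 6 of 15 alternative analyses, with adjusted p from 0.0206 to 0.993. Its log2 fold change was -0.37 in the counts but -0.01 with counts adjusted for the length behind the TPM, and its mean was 8.85 TPM in DSF and 8.51 TPM in DMSO. Slc16a11, outside the naming rule and named after its value was seen, had a log2 fold change of -0.45 (edgeR adjusted p = 0.0291). Its groups overlapped, with 4.21, 4.04 and 5.42 CPM in DSF and 5.41, 6.27 and 6.96 CPM in DMSO. It was not looked at under the alternatives. Slc16a1 made up 29.5 ± 0.493% of the summed TPM of the 8 measured SLC16 transporters in DSF and 18.7 ± 0.349% in DMSO, and Slc16a6 made up 13.2 ± 1.29% in DSF and 21.0 ± 0.5% in DMSO. The share of Slc16a3 was 45.8 ± 0.971% in DSF and 45.6 ± 1.12% in DMSO (SD, n = 3 each).

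**Figure D3:**
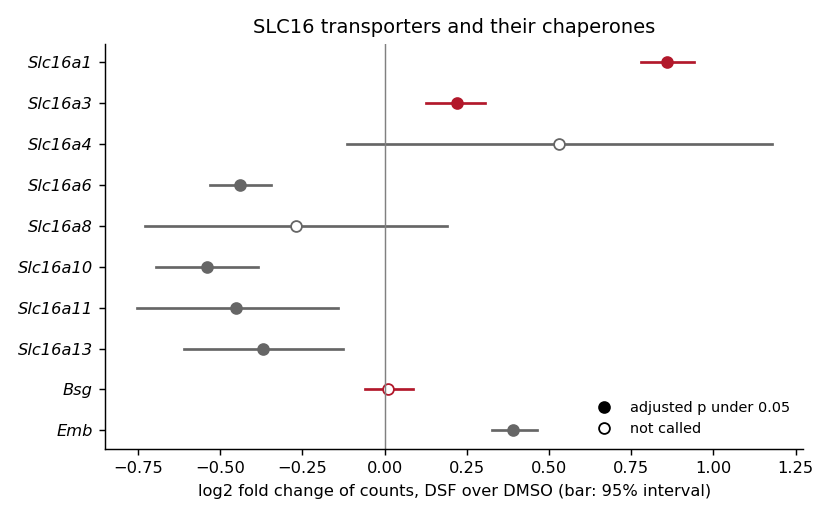
Log2 fold change of counts, DSF over DMSO (x axis), for 8 SLC16 transporters and the partner proteins Bsg and Emb (rows), with 95% intervals as bars; red marks genes of the 33 and filled points an adjusted p under 0.05. Slc16a1 and Slc16a3 lie right of 0 and Slc16a6, Slc16a10, Slc16a11 and Slc16a13 left of it.

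Between the transporters lies the glycolytic chain, whose mRNAs were among the most abundant of the set. The deposited levels ran from 3.48 TPM for Pfkfb4 to 6159 TPM for Gapdh in DSF, and from 3.12 TPM to 5983 TPM for the same genes in DMSO. The most abundant enzyme of each step was taken from hexokinase to lactate dehydrogenase: Hk1, Gpi1, Pfkp, Aldoa, Tpi1, Gapdh, Pgk1, Pgam1, Eno1, Pkm and Ldha. None of these 11 was called. Their folds lay between 0.999 and 1.05, and their 95% intervals between 0.957 and 1.09. Gapdh, which oxidises glyceraldehyde 3-phosphate, had 3261, 3555 and 3397 CPM in DSF and 3268, 3428 and 3373 CPM in DMSO. Ldha, which makes lactate, had 1937, 1992 and 2001 CPM in DSF and 2023, 1982 and 1928 CPM in DMSO. Both overlapped between the groups.

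Some of these enzymes nevertheless stood slightly above DMSO in each DSF library. Aldoa, the aldolase of the pathway, had 2314, 2392 and 2353 CPM in DSF and 2178, 2300 and 2259 CPM in DMSO, 1.05-fold with an edgeR adjusted p of 0.12. In the authors' deposited table Aldoa has an adjusted p of 0.0455, the only member whose call there is higher but is not made by edgeR. Groups did not overlap for Tpi1, Pgam1, Eno1 and Pfkp either, at 1.04, 1.04, 1.03 and 1.02-fold. The minor forms Aldoc and Ldhb, at 1.04 and 0.97-fold, were not called. Summed over the 18 genes, the class came to 18322 ± 393 TPM in DSF and 17627 ± 444 TPM in DMSO, against 1009 ± 16.0 TPM in DSF and 779 ± 21.3 TPM in DMSO for the 5 transport genes (SD, n = 3 each). Without Slc2a3 the transport sum was 713 ± 25.6 TPM in DSF and 654 ± 18.7 TPM in DMSO, a ratio of 1.09 in place of 1.3. By counts, which weight long transcripts more, the sum of all 5 was 1678 ± 25.6 CPM in DSF and 1054 ± 7.64 CPM in DMSO, a ratio of 1.59.

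**Figure D4:**
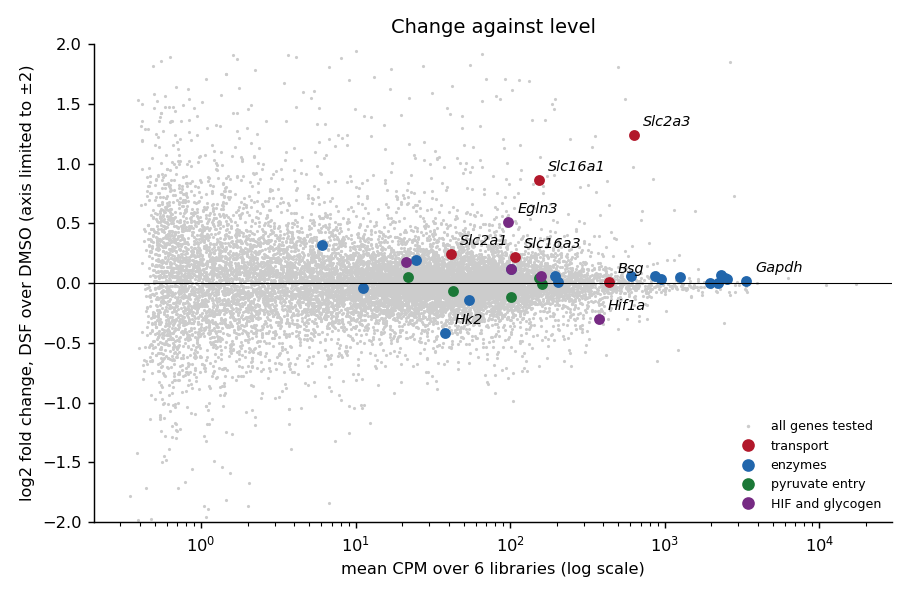
Log2 fold change, DSF over DMSO (y axis, limited to 2 either side, which leaves out 56 genes), against mean CPM over 6 libraries (x axis, log scale) for all genes tested (grey) and the 33 genes (coloured by class). The abundant enzymes on the right lie along 0, and Slc2a3 and Slc16a1 stand above most genes of like level.

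Hk2 (ENSMUSG00000000628, chr6:82725025-82774454, minus strand) encodes the inducible hexokinase that traps glucose in the cell. It had 34.1, 31.1 and 32.7 CPM in DSF and 44.8, 45.0 and 40.9 CPM in DMSO. Every DSF library lay below every DMSO library. The fold change was 0.749 (95% interval 0.689 to 0.813, log2 fold change -0.42 ± 0.06 SE, edgeR adjusted p = 1.51e-06). Hk1, the constitutive form, had 203, 205 and 207 CPM in DSF and 195, 211 and 203 CPM in DMSO, 1.01-fold (95% interval 0.958 to 1.06). Hk2 made up 11.7 ± 0.21% of the hexokinase TPM in DSF and 16.7 ± 1.05% in DMSO, while the hexokinase sum was 77.2 ± 0.596 TPM in DSF and 80.7 ± 4.83 TPM in DMSO. In TPM the log2 ratio of Hk2 was -0.57, further from 0 than in counts. The length implied by counts over TPM was higher in DSF for Hk2 by 0.18 ± 0.05 on the log2 scale (limma unadjusted p = 0.0158, adjusted p = 0.694). By that measure 0 of the 33 members were called at an adjusted p under 0.05 and 1 had an unadjusted p under 0.05, beside 1 call in 11603 genes (0.00862%) and 650 at an unadjusted p under 0.05.

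Phosphofructokinase, the committed step, was carried mainly by Pfkp, which had 79.5 ± 0.113% of its TPM in DSF and 81.0 ± 0.047% in DMSO. Pfkl had 105, 107 and 108 CPM in DSF and 99.9, 99.2 and 94.6 CPM in DMSO, 1.09-fold with an edgeR adjusted p of 0.0491. Pfkm had 27.4, 24.8 and 26.2 CPM in DSF and 23.4, 23.1 and 22.2 CPM in DMSO, 1.14-fold with an edgeR adjusted p of 0.0392. Both groups of values were separate, by a small margin. The Pfkl call ended in 10 of 15 alternative analyses, with adjusted p from 0.0219 to 0.164, and the Pfkm call in 6 of 15, from 0.0226 to 0.178. DESeq2 called neither, at 0.0853 for Pfkl and 0.178 for Pfkm. Exons of Pfkm overlap Senp1 on the opposite strand by 18 bases and Gm26513 on the same strand by 341 bases, and the strand setting of the counting is not given.

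Pfkfb3 and Pfkfb4 make and remove fructose 2,6-bisphosphate, the strongest activator of phosphofructokinase. Pfkfb3 had 53.1, 50.1 and 52.6 CPM in DSF and 55.9, 53.5 and 61.9 CPM in DMSO, 0.91-fold with an edgeR adjusted p of 0.0732. Pfkfb4 had 6.31, 6.85 and 7.05 CPM in DSF and 5.41, 5.91 and 4.89 CPM in DMSO, 1.25-fold with an edgeR adjusted p of 0.0909. Neither was called, although the libraries of the groups did not overlap for either. Their ratio, Pfkfb4 over Pfkfb3, was 0.13 ± 0.00969 in DSF and 0.0954 ± 0.0158 in DMSO by counts, and 0.196 ± 0.0563 in DSF and 0.169 ± 0.0896 in DMSO by TPM, where the groups overlapped.

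**Figure D5:**
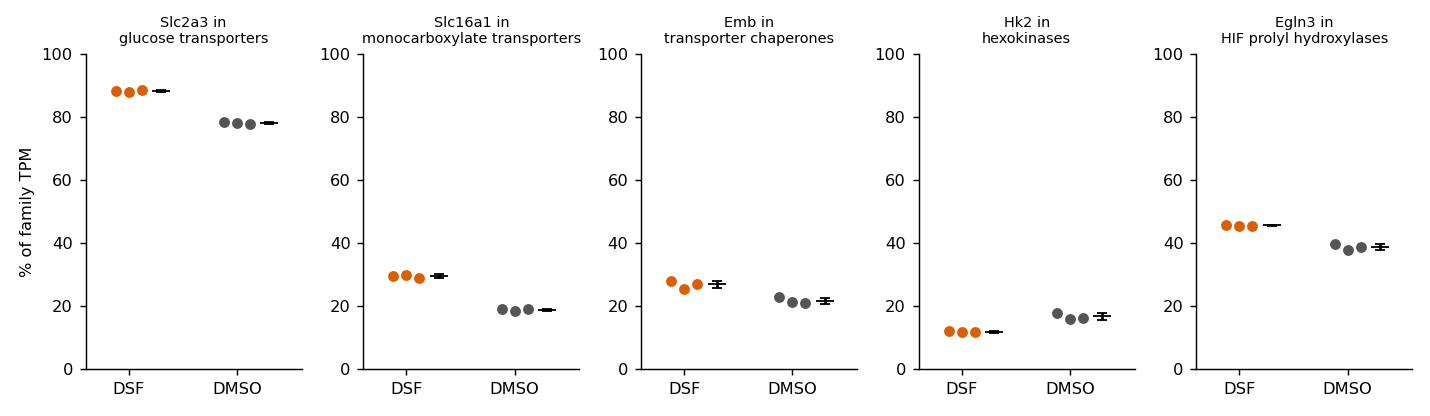
Share of the family's summed TPM (y axes, percent, from 0 to 100) held by 1 gene in each DSF library (orange, left) and DMSO library (grey, right), with the mean and SD of 3 libraries as bars. The shares of Slc2a3, Slc16a1, Emb and Egln3 are higher and that of Hk2 lower in every DSF library.

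For 10 pairs of related genes the ratio of their counts was compared between groups by an exact two-sided permutation test over libraries. The smallest p that 3 against 3 libraries allow is 0.1, which is 0.167 after Benjamini-Hochberg adjustment, so no pair could pass. That smallest p was reached by Slc2a3/Slc2a1, Slc16a1/Slc16a3, Hk2/Hk1, Pfkp/Pfkl, Pfkfb4/Pfkfb3 and Egln3/Egln1. The log2 difference between the groups' ratios was 1.0 for Slc2a3/Slc2a1, 0.65 for Slc16a1/Slc16a3, -0.43 for Hk2/Hk1 and 0.39 for Egln3/Egln1, but only -0.09 for Pfkp/Pfkl. For Pfkfb4/Pfkfb3 it was 0.46 by counts and 0.3 by TPM, where the groups overlapped. The ratios of Pfkm/Pfkl, Aldoc/Aldoa, Ldhb/Ldha and Mpc1/Mpc2 had exact permutation p from 0.3 to 0.7, and their groups overlapped.

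Pyruvate enters mitochondria through the carrier formed by Mpc1 and Mpc2 and is turned into acetyl-CoA by pyruvate dehydrogenase, whose E1 subunits are Pdha1 and Pdhb and which Pdk1 switches off. Mpc1 had 41.6, 41.6 and 42.3 CPM in DSF and 46.6, 44.7 and 40.9 CPM in DMSO, and Mpc2 was at 1.03-fold (95% interval 0.915 to 1.17). Pdk1, a HIF-1 target, had 156, 156 and 155 CPM in DSF and 163, 146 and 146 CPM in DMSO, 1.03-fold (95% interval 0.968 to 1.09). All of these overlapped between the groups, as did Pdha1 at 0.994-fold (95% interval 0.937 to 1.05). Pdhb had 96.5, 95.3 and 97.9 CPM in DSF and 108, 99.6 and 107 CPM in DMSO. Here the DSF libraries lay below the DMSO libraries, at 0.92-fold (95% interval 0.863 to 0.98) with an edgeR adjusted p of 0.0517. It was called in 4 of 15 alternative analyses, with adjusted p from 0.0178 to 0.288.

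Of the 9 other pyruvate dehydrogenase genes tested, 2 were called, both higher (22.2%, near the 22.9% of all genes tested). Pdp1, the phosphatase that switches the complex back on, had 30.5, 26.6 and 29.3 CPM in DSF and 23.3, 22.1 and 21.0 CPM in DMSO. Its groups did not overlap, and the rise was 1.3-fold (95% interval 1.18 to 1.44, edgeR adjusted p = 9.58e-05). Pdpr, its regulatory subunit, was at 1.15-fold (edgeR adjusted p = 0.0288), a call that ended in 5 of 15 alternatives (adjusted p from 0.00758 to 0.607).

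Hif1a (ENSMUSG00000021109, chr12:73901375-73947530, plus strand) encodes the alpha subunit of HIF-1, whose amount is set mostly by protein stability. It had 352, 333 and 327 CPM in DSF and 434, 415 and 394 CPM in DMSO. The highest DSF library stayed below the lowest DMSO library. The fold change was 0.815 (95% interval 0.773 to 0.858, log2 fold change -0.3 ± 0.04 SE, edgeR adjusted p = 2.2e-07). Its exons overlap the antisense gene Gm15283 by 330 bases, which drew a mean of 11.19 counts. Egln3 (ENSMUSG00000035105, chr12:54178981-54203860, minus strand) encodes the prolyl hydroxylase PHD3, itself a classical HIF target. It had 115, 113 and 114 CPM in DSF and 82.6, 79.1 and 79.2 CPM in DMSO. The groups were widely apart for their spread, and the rise was 1.42-fold (95% interval 1.34 to 1.51, log2 fold change 0.51 ± 0.04 SE, edgeR adjusted p = 1.1e-10).

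Egln1, which encodes the main oxygen-sensing hydroxylase PHD2, had 107, 105 and 103 CPM in DSF and 95.1, 99.9 and 94.1 CPM in DMSO, 1.09-fold with an edgeR adjusted p of 0.0431. That call ended in 10 of 15 alternatives, with adjusted p from 0.0165 to 0.123. Egln3 made up 45.6 ± 0.109% of the TPM of the HIF prolyl hydroxylases in DSF and 38.7 ± 0.986% in DMSO, and their sum was 130 ± 1.4 TPM in DSF and 105 ± 1.57 TPM in DMSO. Bnip3, a mitophagy receptor and HIF target, had 172, 155 and 159 CPM in DSF and 171, 155 and 141 CPM in DMSO, and the groups overlapped (1.04-fold, 95% interval 0.939 to 1.16). Gys1, the glycogen synthase of most tissues, had 23.0, 21.7 and 23.3 CPM in DSF and 19.8, 19.6 and 20.4 CPM in DMSO, 1.14-fold with an edgeR adjusted p of 0.0607. Its exons overlap Ruvbl2 on the opposite strand by 310 bases.

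Of 24 other HIF target genes tested, 4 were called higher, 3 lower and 17 not (median log2 fold change -0.01). The 29.2% called lie near the 22.9% of all genes tested, of which 11.6% were called higher and 11.3% lower. Kdm3a, a histone demethylase, had 147, 136 and 146 CPM in DSF and 117, 117 and 116 CPM in DMSO, 1.23-fold (edgeR adjusted p = 1.69e-06). Pdgfb, a growth factor chain, had 5.76, 4.96 and 6.57 CPM in DSF and 2.6, 3.04 and 3.46 CPM in DMSO, 1.9-fold (edgeR adjusted p = 5.36e-05). Ndrg1 was at 1.15-fold (edgeR adjusted p = 0.000739). Plin2, a lipid droplet coat protein, was lower, with 64.0, 69.8 and 76.0 CPM in DSF and 80.0, 83.7 and 85.3 CPM in DMSO (0.843-fold, edgeR adjusted p = 0.000823), and this call ended in 1 of 15 alternatives, which adjusts counts for the length behind the TPM (adjusted p = 0.0915, all alternatives from 1.96e-05 to 0.0915). Vegfa, the vascular growth factor, was at 1.09-fold (95% interval 0.995 to 1.19) and Bnip3l at 1.05-fold (95% interval 0.998 to 1.11); neither was called, and both were named after their values were seen.

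Of 10 other HIF regulators tested, 1 was called (10.0%, under the 22.9% of all genes tested). This was Epas1, which encodes HIF-2 alpha, with 10.1, 11.3 and 11.2 CPM in DSF and 8.44, 8.72 and 9.14 CPM in DMSO. It was at 1.24-fold (edgeR adjusted p = 0.027), a call that ended in 5 of 15 alternatives (adjusted p from 0.0237 to 0.149). The authors' deposited table gave 8 members an adjusted p under 0.05, 6 higher and 2 lower. The share of all genes under that threshold in the authors' values was not counted here, so the 8 have no background beside them. The 8 members were Slc2a3, Slc16a1, Egln3, Slc16a3, Slc2a1 and Aldoa on the higher side and Hif1a and Hk2 on the lower side.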

How the data were processed

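RNA was measured in 6 libraries, 3 DSF and 3 DMSO. Per the labels' protocols, 1 µg of total RNA went into each SMARTER mRNA-Seq library. The submitters' processing notes name the genome build GRCm38, also called mm10. An aligner, counter, annotation release or strand setting was not given in the sources used here. In the table they deposited, the authors give estimated counts per gene, of which 12.1 to 12.9% per library were not whole. It also gives the authors' TPM per library, and their log2 fold changes, p-values and adjusted p-values, per the file headers. A second table by the authors was not used here.

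Table columns carry letters with replicate numbers. The mean TPM that the authors headed DO and DF equal the means of the A and B columns in all 55536 genes within 0.0001 TPM. The code DF was taken to mean DSF and the code DO to mean DMSO. Of the columns of values per library, 0 were left unused.

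The planned design assumed whole counts, so estimated counts were rounded before testing. Genes were filtered with filterByExpr (14318 kept, 41218 left out), scaled by TMM (factors 0.99526 to 1.0053) and tested with the robust quasi-likelihood fit of edgeR 4.0.16 in R 4.3.3, with group as the only term and Benjamini-Hochberg adjustment over all genes tested. Standard errors were derived from F, dividing the size of the log2 fold change by its root, and 95% intervals use the t distribution of the fit. The biological coefficient of variation was 4.44%. In these libraries 3 counts equal 0.136 to 0.166 CPM, a floor that covers counting error only. Replicates within a group differed by a chi-square of 2.16 to 4.01 per degree of freedom, so no library was a copy of another. The effective length was taken as counts over TPM and compared with limma 3.58.1 in genes with at least 1 TPM and 10 counts, which was chosen after the data were seen. Both tests were also run on data simulated from the kind of model they assume, which cannot check that model. The outcome is not given here. Alternatives used DESeq2 1.42.0, limma-voom, other scalings, filters, a replicate term and each library left out.

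Of the deposited identifiers, 55450 were found in GENCODE M21, from which positions and exon overlaps come. The members and lists were chosen with earlier results of these data known. Text names every member, up to 4 called genes with the smallest p of each other list, and copies of members with at least 10 counts on average, and says where a gene falls outside this rule.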

Additional observations from a re-analysis of the deposited data

How the results depend on the processing

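Of 495 results for single members under an alternative, 459 kept their side of the threshold, 26 lost a call and 10 gained one. No called member changed sign. Of members not called, Bsg, Gapdh, Hk1, Mpc2, Pdha1 and Pdk1 did so in 7 results, leaving aside Ldha and Pgk1, whose log2 fold changes were 0.00 at 2 decimals. The calls of 7 members, Egln3, Hif1a, Hk2, Slc16a1, Slc16a3, Slc2a1 and Slc2a3, held under all 15 alternatives, and those of Egln1, Pfkl and Pfkm did not. The 8 members called higher became 5 with counts adjusted for the length behind the TPM (chosen after seeing the data) and 5 to 7 with 1 library left out, lowest without DSF replicate 1, DSF replicate 3 or DMSO replicate 3. The 2 called lower became 2 to 4 with 1 library left out, the 4 being without DMSO replicate 2, which added Pdhb and Pfkfb3. The length adjustment also took the genes called from 1655 to 951 on the higher side and from 1621 to 803 on the lower side; the cause was not tested. DESeq2 called 6 members higher and 2 lower, and 1213 and 1103 genes.

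Replicate numbers are shared between the groups, but same-numbered libraries deviated together only weakly (r = 0.046, 0.035 and 0.055 across genes), although each correlated best with its own number, a hint from the data and not from the design. With the replicate block, 10 members were called higher and 4 lower, adding Aldoa, Gys1, Pdhb and Pfkfb3, and 1924 genes were called higher and 1904 lower. Ratios of related genes kept their sign in TPM in all 10 pairs. The 95% intervals of the 11 abundant enzymes lie between 0.957 and 1.09-fold. For each enzyme, a change within its own interval is not excluded with 3 libraries a group. Sugar uptake and lactate release were not analysed here.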

Other observations

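Other genes of sugar metabolism were tested beside the 33. Over all 8 lists, 93 genes of 117 listed were tested, 12 were called higher and 12 lower (25.8%, beside 22.9% of all genes tested), with a median log2 fold change of 0.0. Among 18 other glycolytic enzymes and regulators, 2 were called higher and 3 lower (27.8%, near the 22.9% of all genes tested). Eno2, the neuronal form of enolase, had 9.3, 6.49 and 8.39 CPM in DSF and 3.84, 3.82 and 3.01 CPM in DMSO. Every DSF library stood above every DMSO library, with a log2 fold change of 1.18 ± 0.15 (SE, edgeR adjusted p = 4.59e-07). It held 0.361 ± 0.0931% of enolase TPM in DSF and 0.152 ± 0.0157% in DMSO (SD, n = 3 each), so Eno1 carried nearly all of it in both groups. Mlxip, which encodes a glucose-sensing transcription factor, had 166, 180 and 176 CPM in DSF and 205, 224 and 217 CPM in DMSO (0.808-fold, edgeR adjusted p = 3.18e-07). Its partner Mlx was at 0.858-fold (adjusted p = 0.0123), a call that ended in 3 of 15 alternatives (adjusted p from 0.00303 to 0.142). Txnip, a target of this pair that restrains glucose uptake, was at 0.936-fold (95% interval 0.896 to 0.978, edgeR adjusted p = 0.0235). Arrdc4, of the same list, was not called and its groups overlapped (0.981-fold, 95% interval 0.853 to 1.13, edgeR adjusted p = 0.885). Both lie outside the naming rule, were named after their values were seen and were not looked at under the alternatives. Pfkfb1 was at 1.44-fold (adjusted p = 0.0141), a call that ended in 2 of 15 alternatives (adjusted p from 0.0125 to 0.107).

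In the glycogen list 2 of 14 genes were called, both higher (14.3%, under the 22.9% of all genes tested). Gaa, the lysosomal glucosidase, had 35.1, 34.3 and 34.5 CPM in DSF and 29.7, 30.0 and 28.3 CPM in DMSO (1.18-fold, edgeR adjusted p = 0.00296). Pygm, a glycogen phosphorylase, was at 1.23-fold by counts (edgeR adjusted p = 0.00599). In TPM its groups overlapped, at 15.4 ± 1.53 TPM in DSF and 14.5 ± 1.85 TPM in DMSO (SD, n = 3 each). Its log2 fold change was 0.3 in the main test and 0.06 to 0.35 over the alternatives. The Gaa call ended in 1 of 15 alternatives (adjusted p from 0.00108 to 0.0961) and the Pygm call in 2 of 15 (0.00413 to 0.805). In the pentose phosphate pathway 2 of 8 genes were called (25.0%, near that of all genes), both lower: Pgd at 0.903-fold (adjusted p = 0.02) and H6pd at 0.845-fold (adjusted p = 0.0406). The Pgd call ended in 4 of 15 alternatives (adjusted p from 0.00308 to 0.164) and the H6pd call in 9 of 15 (0.00372 to 0.263).

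Copies of members drew few counts. Pgam1-ps2 had 161, 225 and 330 counts in DSF and 23.7, 210 and 169 counts in DMSO, a mean of 1.55% of those of Pgam1, and its groups overlapped. Eno1b, Gapdh-ps15 and Pgk1-rs7 had means of 22.2, 17.6 and 13.5 counts, and none of the 4 copies was called. The row of Aldoa that was left out had 5, 10 and 12 counts in DSF and 2, 2 and 2 counts in DMSO. Of members with overlapping exons not yet named, Pfkp shares 748 bases with Pitrm1, Gapdh 68 bases with Iffo1 and Pdha1 603 bases with Map3k15, each on the opposite strand. Also on the opposite strand, Gpi1 shares 741 bases with Gm26762, Bnip3 504 with Gm45507 and Mpc1 480 with 4930506C21Rik. In the same way Hk1 shares 157 bases with Hk1os, Slc2a1 105 with Gm12868, Tpi1 34 with Spsb2 and Aldoa 25 with Fam57b. Exons of Pkm overlap those of Gm49759 on the same strand by 767 bases, and that gene drew a mean of 752.51 counts.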
